A study of Mus musculus with 2 samples.

Results

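Endothelial marker genes of the liver sinusoid were followed in liver RNA of mice labelled FHL2-/- and of wild-type mice. The set holds 36 genes out of 19938 named on the arrays. A gene was taken when a probe, meaning a probe set of the array, was annotated to its symbol and to no other, and each gene is given by its probe with the highest mean over both arrays. Of the 36 genes, 15 are listed as markers of sinusoidal endothelium and 21 as general endothelial genes, not all of which are found in every vessel type. All 36 had a probe, and 35 passed the level filter, which is the 40th percentile of probes with a single symbol, 5.44 on the log2 scale. Cd34, with a mean of both arrays below that level, was the exception.

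The FHL2-/- labelled pool and the wild-type pool each combined RNA from the left liver lobe of 3 male mice, 10 to 11 weeks old. Both groups had a hybrid Black Swiss/129-SV/J background. Each pool was hybridised to 1 Affymetrix array, so neither group has a replicate, the spread between mice was not measured, and no difference below carries a p-value. All differences are log2 values of the FHL2-/- labelled pool minus the wild-type pool. Which exons the knockout removes is not given in the sources used here, and no restriction to a cell type is labelled. Fhl2, a LIM-domain adaptor protein, was at 5.33 in the FHL2-/- labelled pool and 5.30 in the wild-type pool by its 1 probe, below the level filter. That value does not check the label, since the probe's place relative to the deleted part is unknown.

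Liver sinusoidal endothelial cells line the capillaries between plates of hepatocytes. They are fenestrated, lack a continuous basement membrane, and clear waste molecules from blood through scavenger receptors and rapid endocytosis. They also send secreted signals to hepatocytes, among them bone morphogenetic proteins that set iron handling through hepcidin and Wnt signals that pattern the lobule around the central vein. General endothelial genes, such as those for VEGF and angiopoietin receptors and for junction proteins, are shared with vessels of other organs.

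The upstream sequences of 6 members are shown because the members are endothelial genes and ETS factors, to which the member Erg belongs, are known regulators of such genes. RefSeq promoter windows of build GRCm38.p6, 250 bases before to 50 after a gene's start, were found for 20 of the 36 members. The ETS motif searched was CAGGAA on both strands, whose reverse complement is TTCCTG, and other forms of an ETS site were not searched. CAGGAA shares no full match with the other motifs searched. It was present in 14 of the 24 windows of these genes (58.3%), against 30.6% of all 32851 windows. By gene, 13 of the 20 members (65.0%) had it in at least 1 window, against 33.4% of 27025 genes. The GATA motif AGATAA was in 2 of the 24 windows (8.33%, against 11.2% of all) and the SOX motif ACAAAG in 3 (12.5%, against 18.7%), again on both strands. The 250 bases before the start are printed 5′ to 3′ along the gene, with each ETS match in capitals. The first 3 are sinusoidal and the last 3 general endothelial members, chosen after the matches were known.
Stab1: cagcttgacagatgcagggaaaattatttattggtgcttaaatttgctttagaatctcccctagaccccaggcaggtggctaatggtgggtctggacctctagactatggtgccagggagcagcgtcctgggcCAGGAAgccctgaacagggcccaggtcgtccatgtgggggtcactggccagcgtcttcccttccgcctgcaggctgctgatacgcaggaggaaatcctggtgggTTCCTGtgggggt
Stab2: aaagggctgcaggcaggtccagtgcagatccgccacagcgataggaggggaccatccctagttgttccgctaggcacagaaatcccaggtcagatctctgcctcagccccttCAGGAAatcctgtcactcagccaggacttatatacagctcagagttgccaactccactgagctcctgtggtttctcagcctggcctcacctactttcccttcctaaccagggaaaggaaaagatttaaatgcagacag
Clec4g: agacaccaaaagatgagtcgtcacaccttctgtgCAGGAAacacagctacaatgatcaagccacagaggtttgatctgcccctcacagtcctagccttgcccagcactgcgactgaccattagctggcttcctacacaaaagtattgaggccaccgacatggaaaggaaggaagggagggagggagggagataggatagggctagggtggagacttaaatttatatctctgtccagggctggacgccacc
Emcn: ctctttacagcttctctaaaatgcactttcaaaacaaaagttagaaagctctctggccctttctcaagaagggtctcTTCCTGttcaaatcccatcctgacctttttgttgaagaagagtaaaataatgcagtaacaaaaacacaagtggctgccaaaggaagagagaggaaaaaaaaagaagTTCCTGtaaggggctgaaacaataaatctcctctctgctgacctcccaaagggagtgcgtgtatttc
Tie1: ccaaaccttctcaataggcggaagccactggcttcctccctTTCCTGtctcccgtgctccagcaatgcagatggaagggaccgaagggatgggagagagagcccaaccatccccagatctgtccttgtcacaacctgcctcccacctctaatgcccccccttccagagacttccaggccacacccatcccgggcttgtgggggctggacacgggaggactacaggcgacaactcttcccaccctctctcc
Kdr: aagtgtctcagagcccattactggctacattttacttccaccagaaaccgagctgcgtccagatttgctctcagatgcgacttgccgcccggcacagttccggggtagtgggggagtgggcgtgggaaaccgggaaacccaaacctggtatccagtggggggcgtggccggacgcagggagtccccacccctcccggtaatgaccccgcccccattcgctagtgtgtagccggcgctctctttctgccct

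These stretches lie at chr14:31168642-31168891 on the minus strand (Stab1), chr10:87007943-87008192 on the minus strand (Stab2), chr8:3720652-3720901 on the minus strand (Clec4g), chr3:137340828-137341077 on the plus strand (Emcn), chr4:118489850-118490099 on the minus strand (Tie1) and chr5:75978456-75978705 on the minus strand (Kdr). Stab1 holds matches that begin 117 and 13 bases before the start, Stab2 1 match at 138 and Clec4g 1 at 216. In Emcn they begin at 173 and 67 bases and in Tie1 at 209, while the printed stretch of Kdr has no capitals. Members with and without the motif overlapped in their differences between the pools. Among members past the filter, the median difference was 0.08 for the 12 with an ETS match and 0.12 for the 7 without, with ranges from -0.12 to 0.23 and from -0.07 to 0.20.

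Sinusoidal members lay mostly above 0, and the general endothelial members lay around the centre of all genes. The median difference was 0.13 for the 15 sinusoidal members and 0.05 for the 20 general members past the filter, against 0.04 over all 11924 genes that passed it. The second of these turned to -0.0096 when the trend of differences on level was removed, and the first stayed above 0 at 0.09. The median of all genes was then 0.0079. Of the sinusoidal members 14 of 15 (93.3%) were above 0, and of the general members 13 of 20 (65.0%), beside 59.5% of all genes. These counts depend on scaling. Of all 35 members 27 were above 0 as reported, 32 after a shift of both arrays to a common median and 21 after removal of the level trend. The gap between the list medians was 0.08 and was not tested, since genes are not replicates and each group has 1 array. It was also 0.08 with a common median, without the level filter, at the 60th percentile and without the most extreme members. After removal of the level trend, and with the mean of a gene's probes, it was 0.10. It was 0.13 when members listed as also known from other liver cell types were left out, and 0.13 between means. In pooled bulk RNA, more cells of a type and more RNA per cell cannot be told apart.

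**Figure D1:**
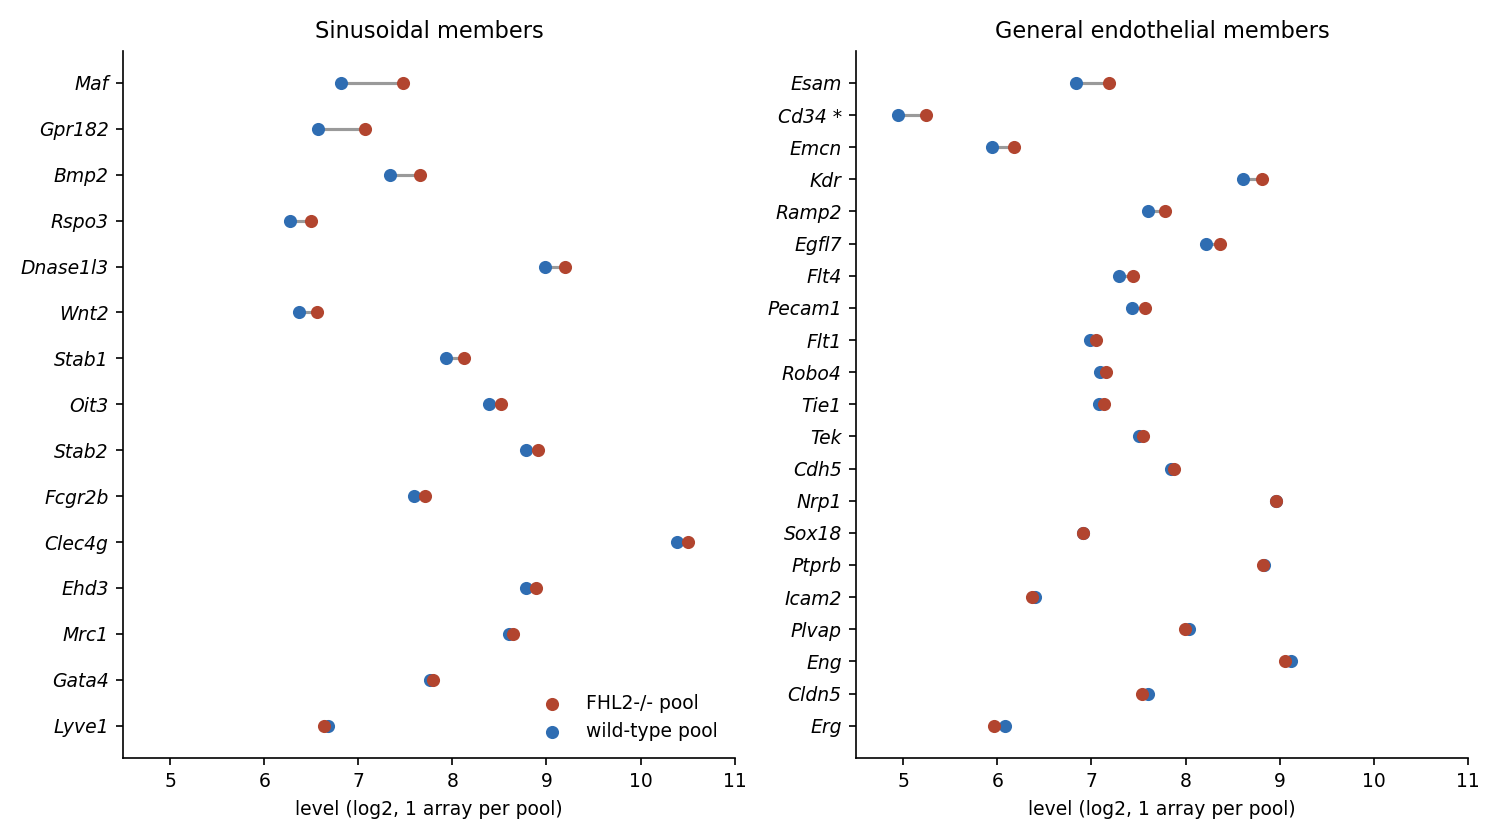
Levels of the 36 members on the log2 scale, 1 array per pool; red points are the FHL2-/- labelled pool, blue points the wild-type pool, and an asterisk marks Cd34, which is below the level filter. The red point lies right of the blue one for 14 of the 15 sinusoidal members, with the widest gap for Maf at 7.47 against 6.82.

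Few members reached a fixed fold. At 1.2-fold, 4 of the 35 members past the filter were higher in the FHL2-/- labelled pool (Maf, Gpr182, Bmp2 and Esam), or 11.4% beside 8.66% of all genes, a share close to the background. None of the 35 was 1.2-fold lower, beside 6.16% of all genes. At 1.5-fold the counts were 1 higher (Maf), beside 0.621% of all genes, and 0 lower, beside 0.335%. Against all genes, higher calls made up 58.5% of those past 1.2-fold, 74.6% after a shift of both arrays to a common median and 48.6% after removal of the level trend, so the balance of the background itself depends on scaling. The repeat measure at hand is the SD between different probes of the same gene, 0.143 over 660 genes, which covers probe error and neither mice nor hybridisations. By more than that SD, 7 of 15 sinusoidal members (46.7%) and 6 of 20 general members (30.0%) were higher, beside 25.2% of all genes, and 0 of 35 were lower, beside 15.0%.

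**Figure D2:**
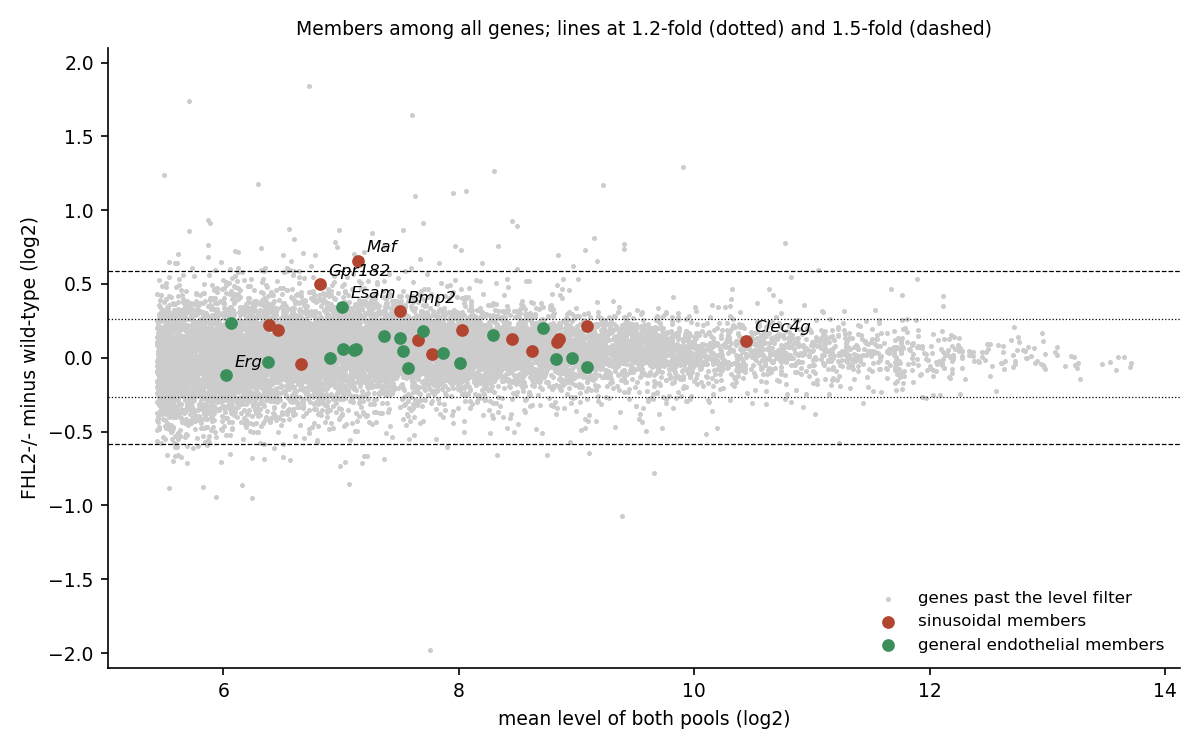
Difference between the FHL2-/- labelled and wild-type pools (log2, vertical) against the mean level of both pools (log2, horizontal) for all genes past the level filter in grey, with sinusoidal members in red and general endothelial members in green. Members lie within the grey cloud, and Maf alone of them is above the dashed 1.5-fold line.

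The background was not flat over level. In 10 equal bins of rising level, 26 of the 35 members fell into bins 5 to 9, where the median difference of all genes ran from 0.05 to 0.08. The general members' median of 0.05 was at the low end of those values, and the sinusoidal members' 0.13 was above each of them.

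Maf (Entrez Gene 17132, chromosome 8) encodes a basic leucine zipper transcription factor that drives the sinusoidal programme in mouse liver endothelium and is also expressed in macrophages. It stood at 7.47 in the FHL2-/- labelled pool and 6.82 in the wild-type pool, a difference of 0.66 or 1.58-fold. This was the highest member, above 99.6% of all genes past the filter, and more than the probe SD of 0.143. The other transcription factors did not share it. Gata4, which specifies sinusoidal endothelium in the mouse and is expressed in other liver cells too, was at 7.79 in the FHL2-/- labelled pool and 7.76 in the wild-type pool. Sox18, a factor of early vessel and lymphatic development, was at 6.91 in both pools, and Erg, an ETS factor of general endothelial identity, at 5.97 in the FHL2-/- labelled pool and 6.08 in the wild-type pool. Erg had the lowest difference of all 35 members, -0.12, which is within the probe SD.

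Gpr182 (Entrez Gene 11536, chromosome 10) encodes an atypical chemokine receptor of sinusoidal and lymphatic endothelium. It measured 7.07 in the FHL2-/- labelled pool against 6.57 in the wild-type pool, a difference of 0.50 or 1.41-fold, above 98.9% of all genes. Its companions among non-receptor and trafficking products were higher by less. Dnase1l3, a secreted enzyme that digests chromatin in blood, was at 9.20 in the FHL2-/- labelled pool and 8.98 in the wild-type pool, 1.16-fold apart. Oit3, a secreted protein with a zona pellucida domain, was at 8.52 in the FHL2-/- labelled pool and 8.39 in the wild-type pool. Ehd3, an ATPase of endocytic recycling, was at 8.89 in the FHL2-/- labelled pool and 8.78 in the wild-type pool. The differences of Oit3 and Ehd3, 0.13 and 0.11, were within the probe SD.

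The 3 secreted signals of the sinusoid were all higher in the FHL2-/- labelled pool, beside 59.5% of all genes, with a median difference of 0.22. Bmp2 (Entrez Gene 12156, chromosome 2), an endothelial ligand that induces hepcidin in hepatocytes, was at 7.66 in the FHL2-/- labelled pool and 7.34 in the wild-type pool, 1.25-fold higher, or 0.256 on the log2 scale once a lowess trend on level was subtracted, just under 1.2-fold. Rspo3, which strengthens Wnt signalling at the central vein, was at 6.50 in the FHL2-/- labelled pool and 6.28 in the wild-type pool. Wnt2, a Wnt ligand of pericentral endothelium, was at 6.56 in the FHL2-/- labelled pool and 6.37 in the wild-type pool. Each of the 3 differences, from 0.19 to 0.32, was more than the probe SD, beside 25.2% of all genes higher by that much. Bmp2 was the member of the 3 past 1.2-fold, beside 8.66% of all genes.

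Most genes listed as hepatocyte targets of these signals were above 0, though bulk RNA does not show which cells the transcripts came from. Of 17 such genes 16 passed the filter, of which 14 (87.5%) were above 0, beside 59.5% of all genes, and the median difference was 0.10. At 1.2-fold, 4 (25%) were higher, beside 8.66% of all genes, and 1 (6.25%) was lower, beside 6.16%. Id3, an inhibitor of helix-loop-helix factors and a BMP target, was at 9.50 in the FHL2-/- labelled pool and 8.84 in the wild-type pool, 1.57-fold apart. Smad7, a feedback inhibitor of the BMP and TGF-beta pathways, was at 7.33 in the FHL2-/- labelled pool and 6.86 in the wild-type pool. The related inhibitor Smad6 lay on the other side, at 6.72 in the FHL2-/- labelled pool and 6.99 in the wild-type pool, 1.21-fold lower. Hamp, which encodes hepcidin, had 11.64 in the FHL2-/- labelled pool and 11.68 in the wild-type pool. Axin2, a general Wnt target, had 6.68 in the FHL2-/- labelled pool and 6.64 in the wild-type pool. Rhbg, an ammonium transporter of pericentral hepatocytes, had 7.64 in the FHL2-/- labelled pool and 7.29 in the wild-type pool. Glul, the glutamine synthetase of the same cells, had 11.70 in the FHL2-/- labelled pool and 11.38 in the wild-type pool, 1.25-fold apart. Rhbg and Glul were thus the Wnt-related genes among the 4 past 1.2-fold. The ligand Bmp2 and the targets Id3 and Smad7 were thus higher while Hamp differed by -0.05, and the relation between ligand and targets was not tested.

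**Figure D3:**
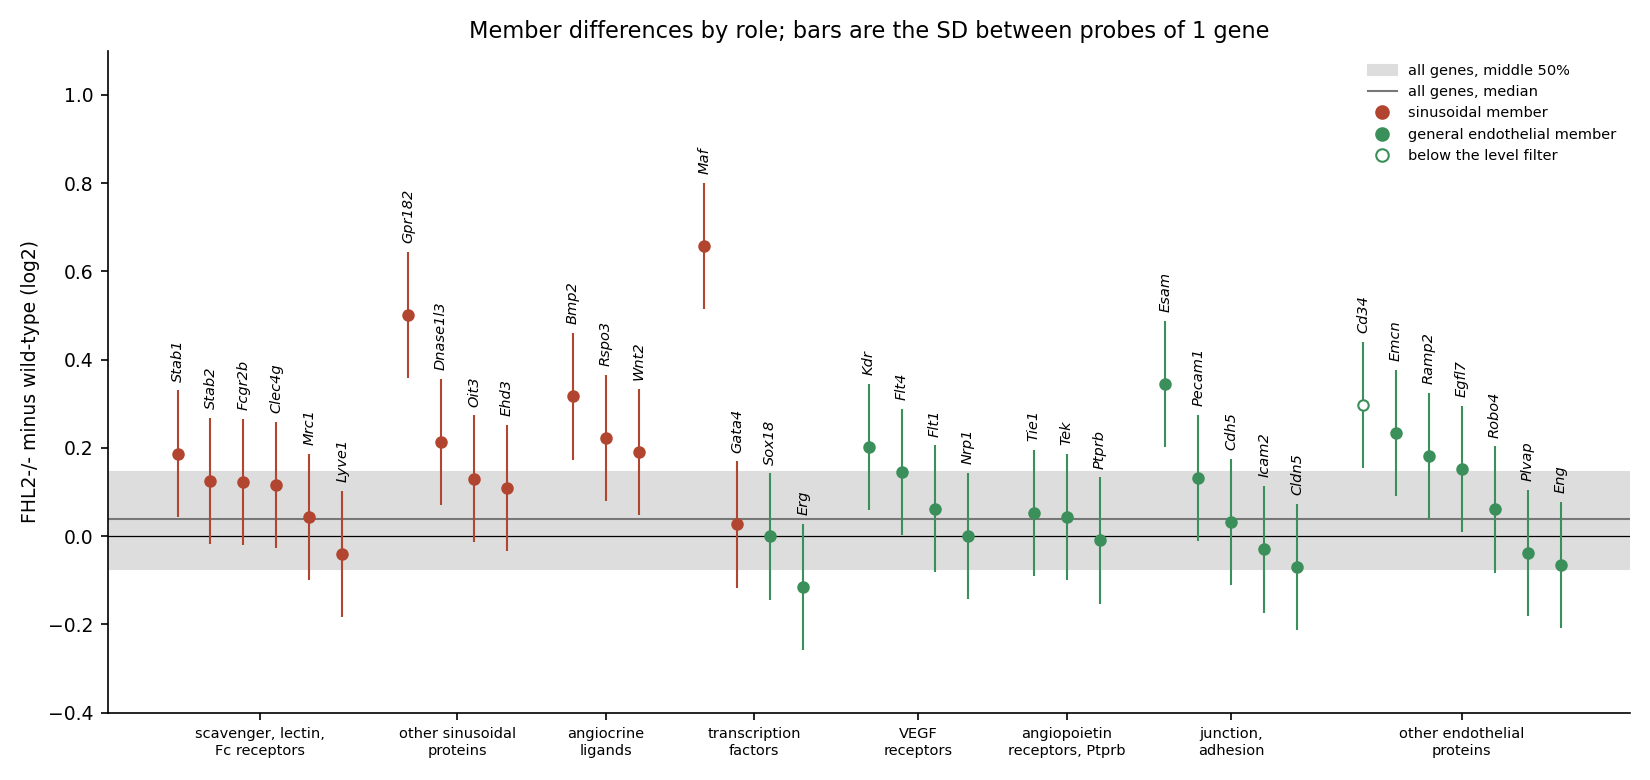
Difference between the FHL2-/- labelled and wild-type pools (log2) for each member, grouped by role; red points are sinusoidal and green points general endothelial members, the open point is below the level filter, bars are the SD between probes of 1 gene (0.143), and the grey band holds the middle 50% of all genes. The angiocrine ligands lie above the band, and the angiopoietin receptors with Ptprb lie inside it.

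Scavenger, lectin and Fc receptors had differences from -0.04 to 0.19, with a median of 0.12. Of the 6, 5 were above 0 (83.3%, beside 59.5% of all genes) and 0 were at least 1.2-fold higher, beside 8.66% of all genes. Stab1, a scavenger receptor for modified proteins and cell debris, led them at 8.12 in the FHL2-/- labelled pool and 7.94 in the wild-type pool, 1.14-fold apart. Its relative Stab2, the main hyaluronan clearance receptor of the sinusoid, was at 8.91 in the FHL2-/- labelled pool and 8.79 in the wild-type pool. Fcgr2b, an inhibitory Fc receptor that takes up small immune complexes, was at 7.71 in the FHL2-/- labelled pool and 7.59 in the wild-type pool. Stab2 and Fcgr2b therefore had nearly the same difference, 0.13 and 0.12. Clec4g, a C-type lectin, was at 10.50 in the FHL2-/- labelled pool and 10.38 in the wild-type pool. Mrc1, the mannose receptor, was at 8.64 in the FHL2-/- labelled pool and 8.60 in the wild-type pool, and Lyve1, a hyaluronan receptor, at 6.64 in the FHL2-/- labelled pool and 6.68 in the wild-type pool. Lyve1 was the 1 sinusoidal member below 0. After the shift to a common median it was above 0, and after removal of the level trend Mrc1 and Gata4 were below 0.

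Stab1, Lyve1, Mrc1, Fcgr2b, Maf and Gata4 were the sinusoidal members listed as also known from macrophages or other liver cells. Their median difference was 0.08, and that of the 9 other sinusoidal members was 0.19. The ranges overlapped, from -0.04 (Lyve1) to 0.66 (Maf) for the shared members and from 0.11 (Ehd3) to 0.50 (Gpr182) for the 9. The list of shared members need not be complete, so the 9 are not shown to be free of RNA from other cells. Kupffer cell and macrophage markers were lower over the same pools. Of 22 listed 21 were named and passed the filter, of which 4 (19.0%) were above 0, beside 59.5% of all genes, with a median of -0.15 and 8 (38.1%) at least 1.2-fold lower, beside 6.16% of all genes. Their summed level on the linear scale was 4444 in the FHL2-/- labelled pool and 4991 in the wild-type pool, and none of the 21 was below the level filter in its mean. Adgre1, an adhesion-family receptor of macrophages, was at 7.37 in the FHL2-/- labelled pool and 7.77 in the wild-type pool. Marco, a macrophage scavenger receptor, was at 6.31 in the FHL2-/- labelled pool and 6.69 in the wild-type pool, and the endotoxin co-receptor Cd14 at 5.82 in the FHL2-/- labelled pool and 6.22 in the wild-type pool. Markers of resident Kupffer cells were mixed. Clec4f and Vsig4 were lower by more than the probe SD, at -0.15 and -0.22, while Cd5l and Timd4 differed by -0.0077 and -0.0025. The list was not lower throughout, since 3 of the 21 were higher by more than the probe SD (14.3%, beside 25.2% of all genes). These were Cd163, a scavenger receptor for haemoglobin, at 0.24, the complement gene C1qc at 0.22 and the Fc receptor Fcgr1 at 0.17. The part of macrophage RNA in the values of the shared members was not tested.

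Growth factor receptors of the endothelium were at or slightly above 0. Kdr, the main signalling receptor for VEGF, was at 8.82 in the FHL2-/- labelled pool and 8.62 in the wild-type pool, 1.15-fold apart. Flt4, the receptor for VEGF-C, was at 7.44 in the FHL2-/- labelled pool and 7.29 in the wild-type pool, and its difference of 0.15 barely passed the probe SD. Flt1, which binds VEGF tightly and limits its action, was at 7.05 in the FHL2-/- labelled pool and 6.98 in the wild-type pool. The co-receptor Nrp1, also known from stellate cells, was at 8.96 in both pools. Kdr and Flt4 were thus the 2 of these 4 genes that passed the probe SD (50%, beside 25.2% of all genes), and 0 of them reached 1.2-fold, beside 8.66%.

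The angiopoietin receptors did not differ by more than the probe SD. Tek, the angiopoietin receptor, was at 7.55 in the FHL2-/- labelled pool and 7.50 in the wild-type pool. Its partner Tie1 was at 7.13 in the FHL2-/- labelled pool and 7.08 in the wild-type pool. Ptprb, the phosphatase that restrains Tek, was at 8.82 in the FHL2-/- labelled pool and 8.83 in the wild-type pool. The 3 differences ran from -0.0096 to 0.05, close to the median of all genes.

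Junction and adhesion genes were split. Esam (Entrez Gene 69524, chromosome 9), an adhesion molecule of endothelial tight junctions and platelets, was at 7.18 in the FHL2-/- labelled pool and 6.84 in the wild-type pool, 1.27-fold higher. It was the 1 general member past 1.2-fold and the filter, above 96.0% of all genes. Pecam1, an adhesion molecule shared with leukocytes, was at 7.57 in the FHL2-/- labelled pool and 7.43 in the wild-type pool. Cdh5, the cadherin of endothelial junctions, was at 7.88 in the FHL2-/- labelled pool and 7.85 in the wild-type pool. Icam2 and Cldn5, an adhesion molecule and a tight junction claudin, were lower by less than the probe SD, with differences of -0.03 and -0.07. Esam stood apart from the other 4, whose differences stayed between -0.07 and 0.13.

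Other surface and secreted proteins of general endothelium ranged from -0.07 to 0.23 past the filter. Emcn, a sialomucin of capillary and venous endothelium, was at 6.18 in the FHL2-/- labelled pool and 5.95 in the wild-type pool. Ramp2, which turns the receptor Calcrl into an adrenomedullin receptor, was at 7.79 in the FHL2-/- labelled pool and 7.60 in the wild-type pool. Its partner Calcrl, no member, was at 7.56 in the FHL2-/- labelled pool and 7.32 in the wild-type pool, so both parts of this receptor were higher by about the same amount, 0.18 and 0.24. Egfl7, a secreted factor of growing vessels, was at 8.37 in the FHL2-/- labelled pool and 8.21 in the wild-type pool. Robo4, a guidance receptor of endothelium, was at 7.16 in the FHL2-/- labelled pool and 7.09 in the wild-type pool. Plvap, which forms the diaphragms of fenestrae, and Eng, a TGF-beta co-receptor, were lower by less than the probe SD, with differences of -0.04 and -0.07. Cd34, a sialomucin of continuous capillaries, was at 5.24 in the FHL2-/- labelled pool and 4.95 in the wild-type pool. Both values of Cd34 lay below the filter level of 5.44, so its difference of 0.30 is uncertain in size.

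Endothelial genes outside the set gave no common shift. Of 36 listed 30 passed the filter, of which 14 (46.7%) were above 0, beside 59.5% of all genes. Their median of -0.02 turned to 0.02 after the shift to a common median, beside 0.08 for all genes, and to 0.06 as a mean. At 1.2-fold, 5 (16.7%) were higher and 1 (3.33%) lower, beside 8.66% and 6.16% of all genes. Myct1, a membrane protein gene of endothelium, was at 6.42 in the FHL2-/- labelled pool and 5.83 in the wild-type pool, a difference of 0.58. Rasip1 and Arhgef15, both genes of vascular endothelium, differed by 0.45 and 0.37. Lyl1, a helix-loop-helix factor of blood and endothelium, was at 6.09 in the FHL2-/- labelled pool and 6.36 in the wild-type pool. Myct1 was thus further apart than any member but Maf, and the middle of the list lay near 0.

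The listed vessel signalling ligands and partners, 19 of 25 past the filter, had a median difference of 0.05, beside 0.04 for all genes. The angiopoietin genes Angpt1 and Angpt2 were among the 6 below the filter. None of the 19 was past 1.2-fold in either direction, beside 8.66% and 6.16% of all genes. Klf2, a factor induced by shear flow, was at 7.64 in the FHL2-/- labelled pool and 7.40 in the wild-type pool. The receptor Notch1 was at 7.71 in the FHL2-/- labelled pool and 7.92 in the wild-type pool. Lymphatic endothelial markers had 3 of 5 above 0 (60%, beside 59.5% of all genes). Their median of 0.02 turned to -0.02 after removal of the level trend, beside 0.0079 for all genes. Podoplanin, Pdpn, was at 5.66 in the FHL2-/- labelled pool and 5.95 in the wild-type pool, 1.22-fold lower, the 1 of the 5 past 1.2-fold (20%, beside 6.16% of all genes on the lower side). Nr2f2, a nuclear receptor of venous and lymphatic endothelium, lay on the other side at 0.23, more than the probe SD.

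Markers of the remaining liver cell types had medians near 0 or rested on few genes, and each list had genes past 1.2-fold. Hepatocyte markers had a median of -0.03 over 15 genes and stellate cell markers -0.02 over 16. Both turned above 0, to 0.01 and 0.03, after the shift to a common median. That shift also moved the median of all genes, from 0.04 to 0.08, so both lists stayed below it. Bile duct markers had a median of 0.15 over 3 genes and blood cell markers -0.14 over 8. Of the hepatocyte markers 1 of 15 (6.67%) was at least 1.2-fold higher, Pck1, an enzyme of gluconeogenesis, at 12.32 in the FHL2-/- labelled pool and 11.90 in the wild-type pool. Of the stellate cell markers 1 of 16 (6.25%) lay past 1.2-fold on each side, the proteoglycan gene Lum at 0.34 and the collagen gene Col1a1 at -0.37. The keratin gene Krt19 was the 1 of 3 bile duct markers at least 1.2-fold higher, at 0.27. Among the 8 blood cell markers 1 (12.5%) was at least 1.2-fold higher, Alas2, the haem synthesis enzyme of red cell precursors, at 0.29. On the lower side were 2 (25%), the leukocyte genes Cd8a and Ptprc, at -0.40 and -0.27. By more than the probe SD, 4 of the 8 (50%) were lower, beside 15.0% of all genes, and 1 was higher, beside 25.2%. These counts stand beside 8.66% of all genes at least 1.2-fold higher and 6.16% lower. The summed level of the hepatocyte list on the linear scale was 112970 in the FHL2-/- labelled pool and 112722 in the wild-type pool. That sum weighs the brightest genes most and does not measure the share of hepatocytes in either pool.

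**Figure D4:**
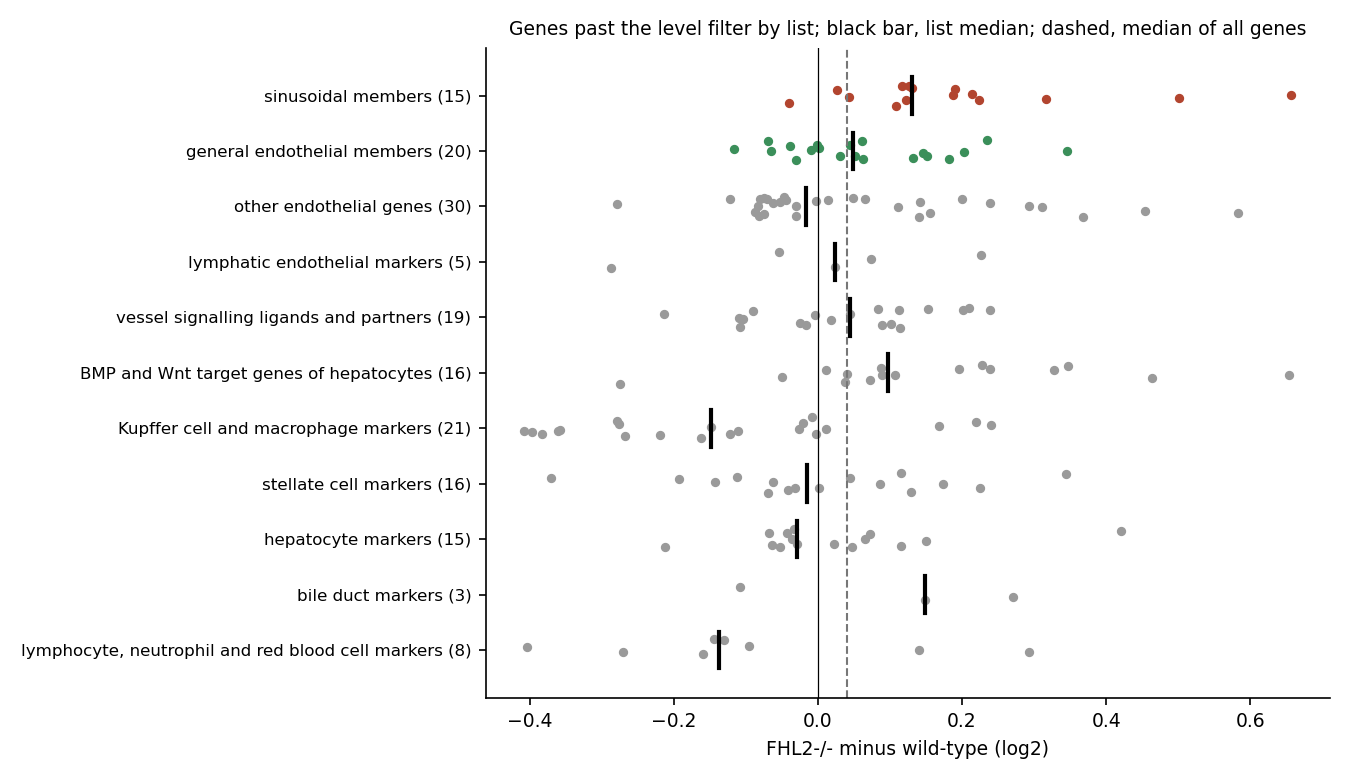
Difference between the FHL2-/- labelled and wild-type pools (log2) for genes past the level filter in each list, with the number of genes in parentheses, a black bar at the list median and a dashed line at the median of all genes (0.04). Sinusoidal members centre at 0.13 and macrophage markers at -0.15.

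**Figure D5:**
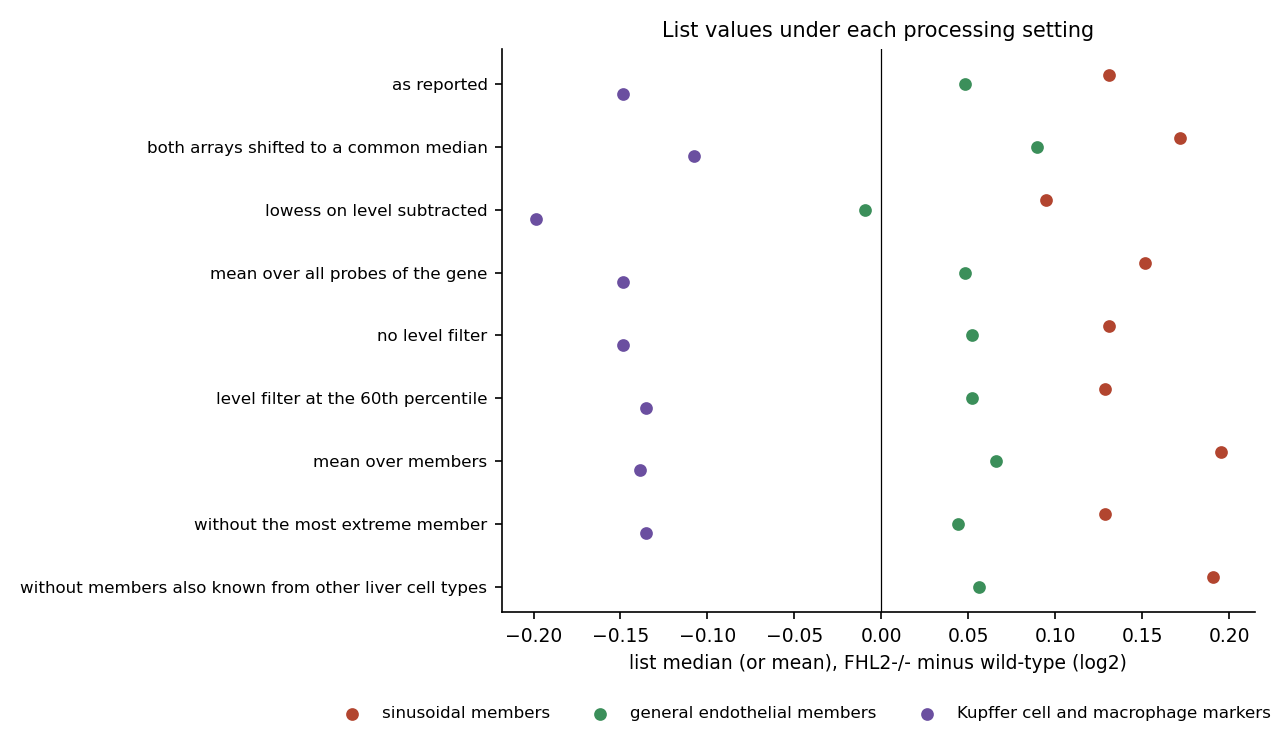
Median difference (or mean, where named) of sinusoidal members, general endothelial members and macrophage markers under each processing setting, in log2. Sinusoidal members stay between 0.09 and 0.20, and general members cross 0 once, at -0.0096.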

How the data were processed

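The authors deposited 1 log2 value per probe and array. Per the submitters' processing notes, Affymetrix Expression Console 1.0, RMA and Partek 6.4 were used, with no role or order given. Neither the genome build nor any setting is stated there. The base of the logarithm is taken from RMA, since no scanner files were used to check it. The table carries no detection calls and RMA shrinks differences between dim transcripts. With a single array per pool, precision is limited by the number of arrays.

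Of 28853 probes, 21789 had 1 gene symbol in the platform annotation, and all 36 members matched the RefSeq gene table of GRCm38.p6 by Entrez identifier. Values were used without further scaling in Python 3.11.15 (pandas 2.3.3). Counts were made at 1.2-fold and 1.5-fold and beyond the SD between probes of a gene, the last a rule added after the members' values were seen. The members and lists were chosen with earlier results of these data known. Every member is reported. Outside the set, the rule names up to 3 genes per list and direction past 1.2-fold and the filter, or else the 2 largest, and others named were chosen after their values were seen. Calls with no test describe these 2 arrays alone. Steps were tested on simulated data. Alternatives were a common median, lowess on level with span 0.3 (statsmodels 0.14.6), the mean of a gene's probes, no filter, a filter at the 60th percentile, list means, and lists without their most extreme or shared members.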

Additional observations from a re-analysis of the deposited data

How the results depend on the processing

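No paired analysis was possible because each group has 1 array, and for the same reason no array could be left out. The shift to a common median adds 0.041 to every difference and moved the median of the members from 0.12 to 0.16 and of the general members to 0.089. Subtracting lowess on level gave 0.062 for the members and -0.0096 for the general members, the 1 member list that changed sign. The median of all genes moved too, from 0.040 to 0.081 with the shift and to 0.0079 with lowess. The sinusoidal median was 0.195 as a mean and 0.191 without shared members, and its gap to the general members 0.129 and 0.135. In the other settings that gap ran from 0.076 to 0.104. Each member past 1.2-fold kept its direction when probes were averaged and under both rescalings, though with lowess Bmp2 was at 0.256, under the 1.2-fold line of 0.263. Without the filter, 1839 genes reached 1.2-fold on the higher side and 1920 on the lower, with 153 and 133 for 1.5-fold. At the 60th percentile these counts were 614, 267, 41 and 14, since fewer genes are counted.

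Among the other lists, endothelial genes outside the set turned to 0.025 with a common median, 0.014 at the 60th percentile and 0.064 as a mean. Stellate markers turned to 0.026, 0.023 and 0.0062 in those settings and to 0.0010 without the most extreme gene. Hepatocyte markers turned to 0.012 with a common median and 0.024 as a mean, lymphatic markers to -0.024 with lowess and -0.0037 as a mean. At the 60th percentile bile duct markers turned to -0.108 (1 gene) and blood cell markers to 0.011 (2 genes). The cause was not tested where fewer genes do not show it.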

Other observations

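Clec4g was the 1 member with a second probe, which was dim, at 4.85 in the FHL2-/- labelled pool and 4.67 in the wild-type pool. Its difference of 0.19 had the same direction as the 0.12 of the bright probe. A further probe was annotated to both Ramp2 and Malat1 and was left out, since its level of 13.76 in the FHL2-/- labelled pool and 13.80 in the wild-type pool cannot be given to either gene.

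The members lie on 14 chromosomes. Fcgr2b and Cd34 are on chromosome 1, which also holds Fhl2, and their differences were 0.12 and 0.30. The 5 members on chromosome 8, Maf, Clec4g, Cdh5, Nrp1 and Plvap, differed by 0.66, 0.12, 0.03, 0.0011 and -0.04. The 5 on chromosome 10 were Gpr182, Rspo3, Oit3, Stab2 and Ptprb, with differences of 0.50, 0.22, 0.13, 0.13 and -0.0096. Chromosome 2 also held 5 members, Bmp2, Egfl7, Mrc1, Sox18 and Eng, at 0.32, 0.15, 0.04, -0.0005 and -0.07.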
